A study of Capra hircus with 2 samples.

Results

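The 7 immune cell miRNAs of the goat mammary gland, miR-142, miR-142*, miR-146a, miR-146b, miR-155, miR-150 and miR-223, were followed here across the dry period and peak lactation. They are the entries of the study's list of 346 conserved miRNAs whose names begin with miR-142, miR-146, miR-155, miR-150 or miR-223, with letters and stars included and numbers that run on, such as miR-1468, left out. The goats were Xinong Saanen dairy goats, a Chinese dairy breed, 2.5 years old, and each stage was 1 small RNA library from mammary tissue of 3 animals that had been pooled. The study puts the dry period at 320 and peak lactation at 75 days after lambing, whereas the sample labels give 75 days for the dry period and 320 days for peak lactation, and the sample titles were followed here. With 1 library per stage there was no replicate, and every interval below covers counting error only.

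A miRNA is a short RNA that guides an Argonaute protein to messenger RNAs, mainly through its seed, bases 2 to 8. The miR-142 hairpin is expressed throughout the blood cell lineage, and both of its arms give mature miRNAs in leukocytes. Myeloid cells, above all neutrophils and macrophages, are rich in miR-223, whereas miR-150 is a miRNA of resting mature B and T lymphocytes. Activated lymphocytes and macrophages induce miR-155, and NF-κB induces miR-146a and miR-146b, which repress the receptor adaptors TRAF6 and IRAK1 in a feedback loop. The miR-146 and miR-155 genes can also be switched on outside blood cells, epithelial cells included. Leukocytes are resident in the mammary gland, and they enter it in larger numbers when milking stops.

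The listed sequences of the 7 members are shown because the seed, and the last bases of the miR-146 pair, decide what can be told apart. The seed is in capitals.
miR-142: cCCAUAAAguagaaagcacu
miR-142*: gUAGUGUUuccuacuuuaugga
miR-146a: uGAGAACUgaauuccauagg
miR-146b: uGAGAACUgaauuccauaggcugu
miR-155: uUAAUGCUaaucgugauaggggu
miR-150: uCUCCCAAcccuuguaccagug
miR-223: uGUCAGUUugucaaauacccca

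Only miR-146a and miR-146b shared a seed. The listed miR-146a is the first 20 nt of the listed miR-146b, so the list gives no base by which miR-146a alone could be recognised. The other 5 seeds occurred in no other miRNA of the list. In the RefSeq gene table of the goat assembly ARS1.2, none of MIR146A, MIR146B, MIR155, MIR150 and MIR223 lies inside a protein-coding gene. The nearest protein-coding neighbours are ATP10B and PTTG1 for MIR146A, MFSD13A and CUEDC2 for MIR146B, MRPL39 and NCAM2 for MIR155, and VSIG4 and PABPC5 for MIR223.

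Sequencing depth was 14851375 clean reads (dry period) and 15712891 (peak lactation). Conserved miRNAs took up 61.1% of them in the dry period against 14.4% at peak lactation, and the median log2 fold change of the 257 miRNAs with at least 1 read per 1000000 clean reads (RPM) in a library was -1.44 (peak lactation over dry period). Division by the reads of conserved miRNAs instead of all clean reads raises every log2 fold change by 2.08. The values below are therefore per clean read, with the distance from that median and, where it alters a direction, the value per miRNA read. The latter depends on the matching rule. Matching reads to miRNA precursors, the study counted fewer conserved miRNA reads than here in the dry period and more at peak lactation. With its totals the shift would be smaller, and directions per miRNA read could differ from those given here. A decrease per clean read in whole tissue cannot tell fewer cells of a type from less RNA per cell.

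All 7 members were detected in both libraries, with levels from 2.10 RPM (miR-142* at peak lactation) to 1300.2 RPM (miR-146b in the dry period). The tags of the 7 members, each counted once, held 26694 reads in the dry period against 22841 at peak lactation, or 1797 and 1454 RPM. Most were miR-146b, which made up 72.3% of them in the dry period (95% exact binomial interval 71.8 to 72.9%) and 87.8% at peak lactation (87.3 to 88.2%). Outside the miR-146 pair, 7384 and 2795 reads were left, of which miR-142 held 5461 and 1854, so that this sum mainly follows miR-142. The log2 fold change was -0.31 for the whole group (95% interval -0.33 to -0.28) and -1.48 outside the miR-146 pair (-1.55 to -1.42), the latter close to the median of all tested miRNAs. Per miRNA read these became 1.78 and 0.60. As a share of conserved miRNA reads, the group went from 0.294% to 1.01%.

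**Figure D1:**
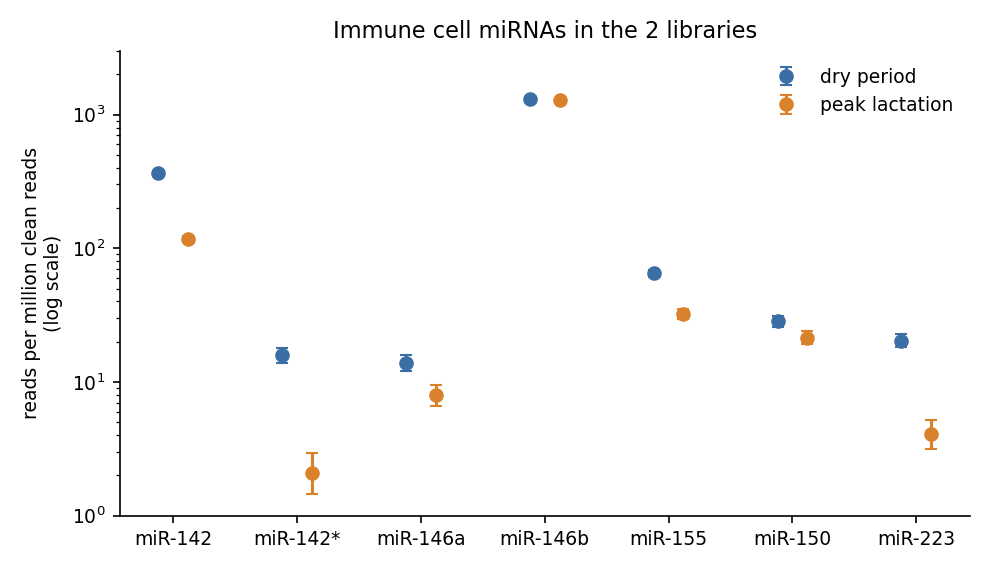
Level of each immune cell miRNA in the dry period (blue) and peak lactation (orange) library, in RPM on a log axis, with 95% exact binomial intervals of the count. The points of miR-146b lie together at 1300.2 and 1276 RPM, while those of miR-142* and miR-223 are the farthest apart.

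All 7 log2 fold changes were below 0 per clean read, as were 96.1% of the 257 tested miRNAs, and 5 of the 7 were above 0 per miRNA read. A log2 fold change below -1 was found for 4 of the 7 members (miR-142, miR-142*, miR-155 and miR-223), against 70.4% of the tested miRNAs. With identical tags only, miR-155 was at -0.82 and left this group, and with matches of at least 20 nt miR-146a joined it at -1.09. No member was above 1, against 1.17% of the tested miRNAs. The median of the members was -1.01, and 4 members were above the median of all tested miRNAs. Per conserved miRNA read, 0 members were below -1 and 4 were above 1 (miR-146a, miR-146b, miR-155 and miR-150), where 7.39% and 36.2% of the tested miRNAs passed these limits. The members spread over most of the range of the tested miRNAs, from rank 25 for miR-142* to rank 247 for miR-146b when ranked from the lowest value.

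**Figure D2:**
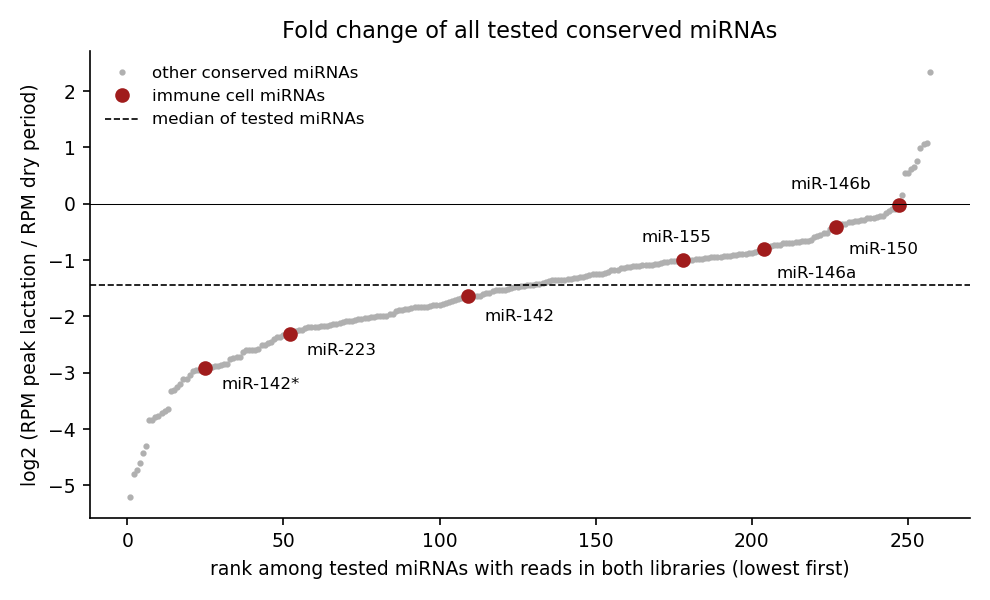
Log2 fold change, peak lactation over dry period per clean read, of the 257 tested conserved miRNAs in rank order (grey), with the 7 immune cell miRNAs in red and the median of -1.44 as a broken line. The members run from -2.92 (miR-142*) to -0.03 (miR-146b), on both sides of the median.

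For miR-146b, the most abundant member, 19310 reads were counted in the dry period against 20046 at peak lactation, or 1300.2 and 1276 RPM. The log2 fold change was -0.03, with a 95% interval of -0.06 to 0.00. Per clean read its level was thus nearly the same in both libraries, and it lay 1.41 above the median of the tested miRNAs on the log2 scale. Its place among the 346 miRNAs by reads moved from 36 in the dry period to 20 at peak lactation. Per miRNA read its log2 fold change was 2.06.

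The reads that fit the listed miR-146a are all shared with miR-146b. Tags whose match ended at or before base 20 numbered 205 reads in the dry period against 125 at peak lactation, or 13.8 and 7.96 RPM, with a log2 fold change of -0.80 (95% interval -1.13 to -0.47). These reads were a mixture, which base 21 resolves further. Of 19262 dry period reads with the first 20 bases of both, 19105 had C at base 21, the base of the listed miR-146b, and 41 ended at base 20. Of 19999 such reads at peak lactation, 19921 had C and 36 ended there. The reads with U at base 21 numbered 97 in the dry period, or 0.504% (95% exact interval 0.409 to 0.614%), and 35 at peak lactation, or 0.175% (0.122 to 0.243%). An A was found in 14 and 6 reads and a G in 5 and 1.

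The tags with U at base 21 did not follow miR-146b. Their log2 fold change was -1.55 (95% interval -2.15 to -0.98), 1.53 below that of the C tags (interval of the difference -2.09 to -0.97). This difference does not depend on how the libraries are scaled. The most frequent of them are shown with the 2 main miR-146b tags, so that the last bases can be compared, with the bases from 21 on following the final gg of the shared part.
U tag of 22 nt: uGAGAACUgaauuccauagguu
U tag of 21 nt: uGAGAACUgaauuccauaggu
miR-146b tag of 24 nt: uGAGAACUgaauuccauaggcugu
miR-146b tag of 23 nt: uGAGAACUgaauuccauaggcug
The 22-nt U tag had 28 reads in the dry period against 12 at peak lactation, and the 21-nt U tag had 18 and 1. Whether these tags came from miR-146a or from miR-146b with altered ends was not tested.

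Per clean read both arms of the miR-142 hairpin were lower at peak lactation, the star arm by more, whereas per miRNA read only the star arm was lower. For miR-142, 5461 reads (368 RPM) were counted in the dry period against 1854 reads (118 RPM) at peak lactation. The log2 fold change was -1.64 (95% interval -1.72 to -1.56), which is 0.20 below the median of all tested miRNAs and becomes 0.44 per miRNA read. For miR-142* there were 236 reads (15.9 RPM) and 33 reads (2.10 RPM), a log2 fold change of -2.92 (-3.49 to -2.39) or 1.48 below the median, and it stayed below 0 per miRNA read, at -0.84. The star arm made up 4.14% of the reads of both arms in the dry period (95% exact interval 3.64 to 4.69%) and 1.75% at peak lactation (1.21 to 2.45%), so the ratio of the arms fell from 0.0432 to 0.0178. The fold changes of miR-142 and miR-142* differed by 1.28 (0.75 to 1.81), a difference that scaling leaves untouched.

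The myeloid miR-223 was the other member below 0 on both scales. It had 302 reads (20.3 RPM) in the dry period against 64 reads (4.07 RPM) at peak lactation, with a log2 fold change of -2.32 (95% interval -2.73 to -1.93), 0.88 below the median. Per miRNA read it was at -0.24, which by the width of that interval cannot be told from 0. It could not be separated from miR-142* at this depth (difference of miR-142* from miR-223 -0.60, interval -1.25 to 0.05), while it was 0.68 lower than miR-142 (interval of the difference 0.28 to 1.08).

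The lymphocyte miR-150 was second to miR-146b in how little its level differed per clean read. It had 422 reads (28.4 RPM) in the dry period against 337 reads (21.4 RPM) at peak lactation, a log2 fold change of -0.41 (95% interval -0.62 to -0.20) that lay 1.03 above the median and became 1.68 per miRNA read. For miR-155, the miRNA of activated leukocytes, direction depended on the scale. It had 963 reads (64.8 RPM) and 507 reads (32.3 RPM). Its log2 fold change of -1.01 (-1.16 to -0.85) was at the limit of -1 and 0.43 above the median, and it was 1.08 per miRNA read. The fold change of miR-150 exceeded that of miR-155 by 0.60 (interval 0.34 to 0.86) and that of the myeloid miR-223 by 1.91 (1.47 to 2.35).

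Of the 21 pairs of members, 19 had fold changes whose difference had an interval, not adjusted for the number of pairs, without 0. The exceptions were miR-142* with miR-223 and miR-146a with miR-155. The same count over pairs of all tested miRNAs was not made, so it does not set the members apart from other miRNAs. The order from the lowest value was miR-142*, miR-223, miR-142, miR-155, miR-146a, miR-150 and miR-146b. It is independent of the scaling, since all members come from the same libraries, but not of the counting rule. With 1 mismatch allowed miR-146a (-0.32) lay above miR-150 (-0.43), and with matches of at least 20 nt it lay at -1.09, below miR-155 (-1.01). It is also the order in 1 pair of pooled libraries, and the spread between animals is unknown.

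The 5′ ends differed between the members. Here all tags with listed bases 4 to 18 were taken, with a start within 3 nt of the listed one. The listed start held more than 98% of the reads for miR-146b, miR-155 and miR-150 in both libraries (dry period 99.8%, 99.5% and 98.2%, peak lactation 99.8%, 99.6% and 99.4%). A sizeable share of miR-142, miR-142* and miR-223 reads began elsewhere, and with a shift of the start the seed shifts as well. The starts are shown by their most frequent tags, with bases 2 to 8 of each tag in capitals.
miR-142, listed start: cCCAUAAAguagaaagcacu
miR-142, 2 nt downstream: cAUAAAGUagaaagcacua
miR-142, 3 nt downstream: aUAAAGUAgaaagcacuacuaa
miR-142*, listed start: gUAGUGUUuccuacuuuaugga
miR-142*, 1 nt upstream: uGUAGUGUuuccuacuuuaugg
miR-223, listed start: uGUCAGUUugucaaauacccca
miR-223, 1 nt downstream: gUCAGUUUgucaaauaccccaa

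For miR-142, the start 2 nt downstream held 18.5% of 7324 reads in the dry period (95% exact interval 17.6 to 19.4%) and 19.1% of 2446 reads at peak lactation (17.5 to 20.7%). The start 3 nt downstream held 5.34% (4.83 to 5.88%) and 3.92% (3.19 to 4.77%), a smaller share at peak lactation with intervals that did not overlap. The step of 1 nt between them was nearly unused, with 23 and 3 reads. By start, the log2 fold changes were -1.64 for the listed one (-1.72 to -1.57), -1.62 for 2 nt (-1.77 to -1.47) and -2.11 for 3 nt downstream (-2.44 to -1.78). The 3 seeds of miR-142 occurred together in both stages, and those of the shifted starts, AUAAAGU and UAAAGUA, were in no other listed miRNA.

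For miR-223, 26.6% of 418 dry period reads began 1 nt downstream (22.4 to 31.1%) and 21.4% of 84 reads at peak lactation (13.2 to 31.7%). For miR-142*, 23.9% of 335 reads began 1 nt upstream in the dry period (19.4 to 28.8%), and 16.7% of 48 at peak lactation (7.48 to 30.2%). For both, the intervals of the stages overlapped widely, and no stage difference was detectable at this depth.

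**Figure D3:**
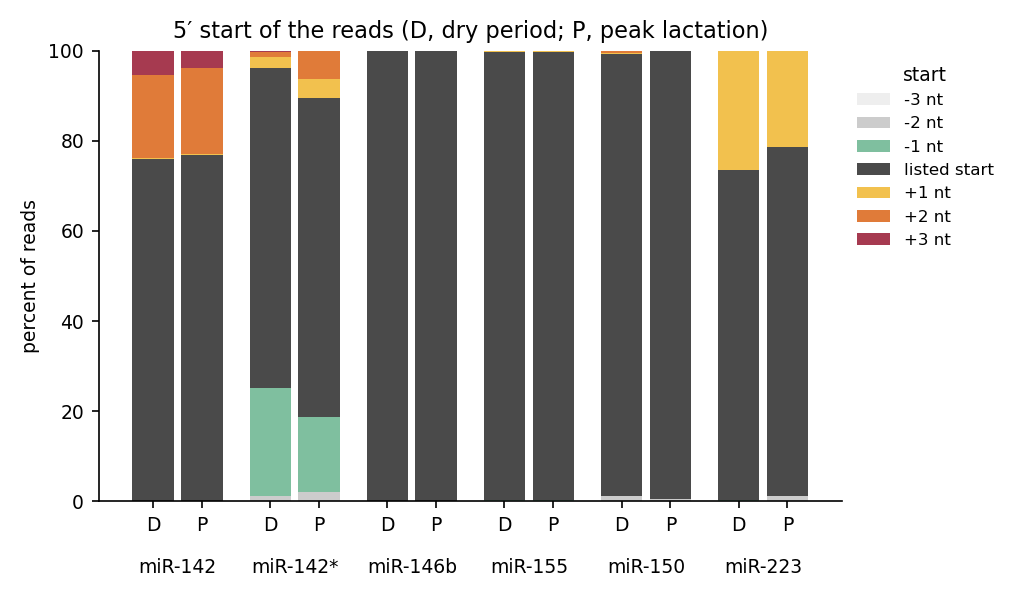
Share of reads by 5′ start relative to the listed sequence, for 6 members, with 1 bar per stage (D for dry, P for peak) and negative numbers for upstream starts. The starts of miR-146b, miR-155 and miR-150 are nearly uniform, whereas miR-142 has a block at 2 nt and miR-223 at 1 nt downstream and miR-142* at 1 nt upstream.

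At peak lactation a larger share of the miR-155, miR-142 and miR-146b reads, and a smaller share of the miR-146a reads, ran past the listed 3′ end. Reads longer than the listed sequence with all its bases kept went from 16.4% to 24.1% for miR-155 (95% exact intervals 14.1 to 18.9% and 20.4 to 28.0%). For miR-142 they went from 47.3% to 53.4% (46.0 to 48.6% and 51.1 to 55.7%), and for miR-146b from 5.25% to 6.85% (4.94 to 5.58% and 6.50 to 7.21%). For miR-146a, whose longer reads are those that leave miR-146b at base 21, they went the other way, from 56.6% to 33.6% (49.5 to 63.5% and 25.4 to 42.6%). Those are the reads with U, A or G at base 21 given above, so the miR-146a value repeats that split and is not a separate result. In each of these 4 members the intervals of the libraries did not overlap. The share for miR-223 was 38.4% and 50%, with overlapping intervals (32.9 to 44.2% and 37.2 to 62.8%). For miR-150 it was 20.6% and 19.0%, and for miR-142* 20.8% and 18.2%, again with overlapping intervals. For comparison, 143 conserved miRNAs had at least 100 reads in both libraries. Their share of reads over the listed length, whatever the bases, had a median difference of -0.15 points (peak lactation minus dry period). How many of the 143 had intervals that did not overlap was not counted. The shifts are thus not shown to be particular to the members.

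The mean read length was greater at peak lactation for 5 members, by 0.257 nt for miR-223, 0.226 nt for miR-155, 0.121 nt for miR-142*, 0.0964 nt for miR-142 and 0.0905 nt for miR-146b. It differed by -0.105 nt for miR-150 and -0.0431 nt for miR-146a, both shorter at peak lactation. Among the 143 conserved miRNAs with at least 100 reads in both libraries, the mean length was greater at peak lactation for 49.7%, and the median difference was -5.67e-05 nt. Within miR-146b, the 24-nt tag that is identical to the listed sequence went from 8074 to 9062 reads, or 544 to 577 RPM (log2 fold change 0.09, 95% interval 0.04 to 0.13). The tag 1 nt shorter went from 8003 to 7622 reads, or 539 to 485 RPM (-0.15, -0.20 to -0.11).

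Bases that the list does not hold were common at the ends. Reads that left the listed sequence with A alone made up 31.2% of miR-142 in the dry period against 35.1% at peak lactation, 21.2% and 15.8% of miR-155, and 6.48% and 6.97% of miR-146b. Reads that left it with U alone made up 17.5% and 29.7% of miR-223, 15.1% and 20.7% of miR-155, 1.81% and 1.48% of miR-146b and 0.769% and 0.539% of miR-142. An A or U next to the listed end can also be a base of the hairpin, and no hairpin sequence was used here to tell these apart. In miR-142, the tag shown for the start 3 nt downstream (273 and 63 reads) ran on past the listed end with A and then further bases. Reads of miR-142 with 1 such A are thus not shown to carry an added base.

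**Figure D4:**
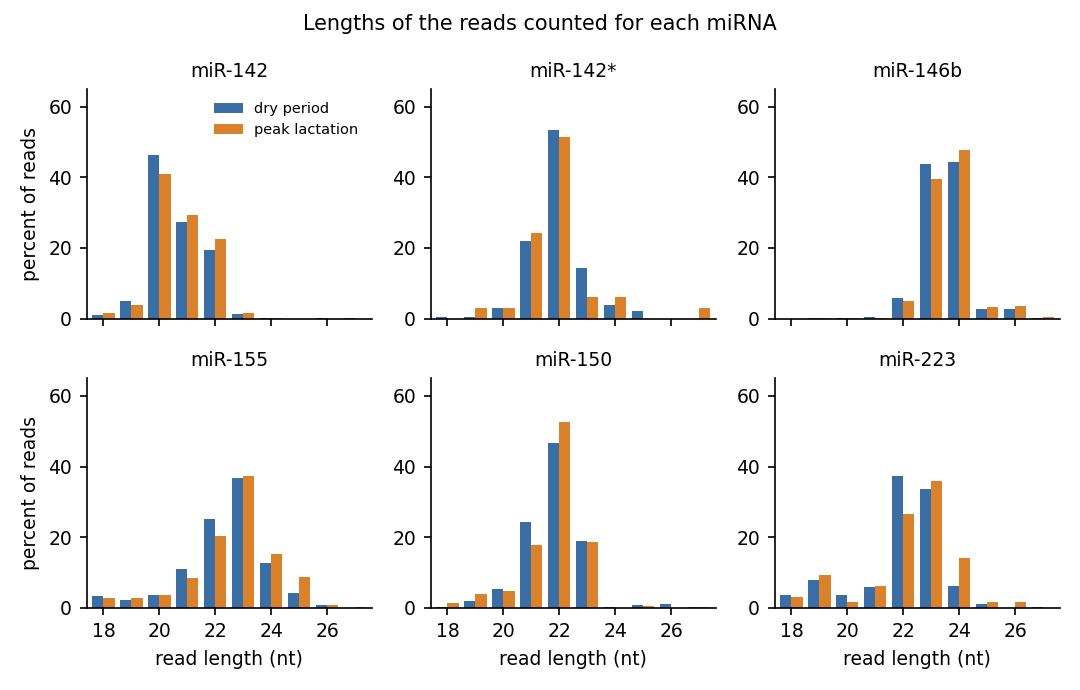
Length in nt of the reads counted for 6 members, as a percentage of the reads of that member, with blue for the dry period and orange for peak lactation. miR-146b has peaks at 23 and 24 nt, of which the 24-nt peak is the higher in both libraries, by more at peak lactation. miR-155 has a smaller share of 22 nt and larger shares of 24 and 25 nt at peak lactation.

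Other miRNAs with known roles in immunity are given beside the members per clean read. Of the 9 lymphocyte-linked miRNAs (miR-342, miR-181a, miR-363 and members of the miR-17 cluster), 9 had a log2 fold change below -1, against 70.4% of all tested miRNAs, and the median was -1.54 against -1.44. Per miRNA read, 0 of the 9 were below -1, and they ran from -0.16 (miR-17-5p) to 1.07 (miR-181a), with miR-18a at -0.05 and miR-20a at -0.03 also below 0. In this list miR-342 had 20058 and 7292 reads (1351 and 464 RPM) and miR-181a, which tunes T cell receptor signalling, had 21728 and 11373 reads (1463 and 724 RPM). Their log2 fold changes were -1.54 and -1.02. The other 7 lay between -2.24 (miR-17-5p) and -1.07 (miR-19b).

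Of 5 further miRNAs that Toll-like receptor signals induce, 3 reached 1 RPM in a library. These were miR-21 with 131526 and 37123 reads (log2 fold change -1.91), miR-132 with 57 and 7 reads (-3.11) and miR-9 with 64 and 42 reads (-0.69). The values for miR-212 (14 and 1 reads) and miR-147 (11 and 3 reads) were below 1 RPM in both. The study itself called miR-29a, miR-30a-5p, miR-101 and the member miR-146b immune-related, choosing them among the most abundant miRNAs of these libraries, so none of them, miR-146b included, is independent evidence. Outside miR-146b, their log2 fold changes were -1.33, -0.84 and -0.99. Per miRNA read, these 3 were at 0.75, 1.24 and 1.10, while miR-21 was at 0.18, miR-9 at 1.39 and miR-132 at -1.02.

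Markers of other cells in the tissue moved as well, and their part in the values of the immune miRNAs was not tested. The 3 red blood cell miRNAs, as a sum, went from 109.9 to 189.5 RPM, with miR-451 at 762 and 1696 reads, miR-144 at 253 and 557 reads and miR-486 at 617 and 725 reads. Their log2 fold changes were 1.07, 1.06 and 0.15 per clean read, the first of them opposite in direction to miR-142, and 3.16, 3.14 and 2.24 per miRNA read against 0.44 for miR-142. The 6 epithelial miRNAs (the miR-200 family and miR-205) summed to 2687 and 1342 RPM with a median log2 fold change of -1.10 and 3 of 6 below -1, from -1.99 for miR-429 to -0.09 for miR-141, which had 991 and 986 reads. Per miRNA read all 6 were above 0, from 0.09 to 2.00. The endothelial miR-126 and miR-126* summed to 129 and 81.4 RPM (median -0.48, 0 of 2 below -1, and 1.34 and 1.87 per miRNA read), and the smooth muscle miR-143 and miR-145 to 11846 and 5199 RPM (median -1.81, 1 of 2 below -1, and 1.23 and -0.67 per miRNA read). The skeletal muscle miRNAs summed to 7241 and 3847 RPM (median -1.61, 3 of 4 below -1), nearly all from miR-1 with 106563 and 60258 reads, and per miRNA read they ran from -0.52 to 1.18. These counts stand against 70.4% of all tested miRNAs below -1 per clean read, and per miRNA read no miRNA of these cell type lists was below -1. No marker of these lists was at 0 in either library.

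**Figure D5:**
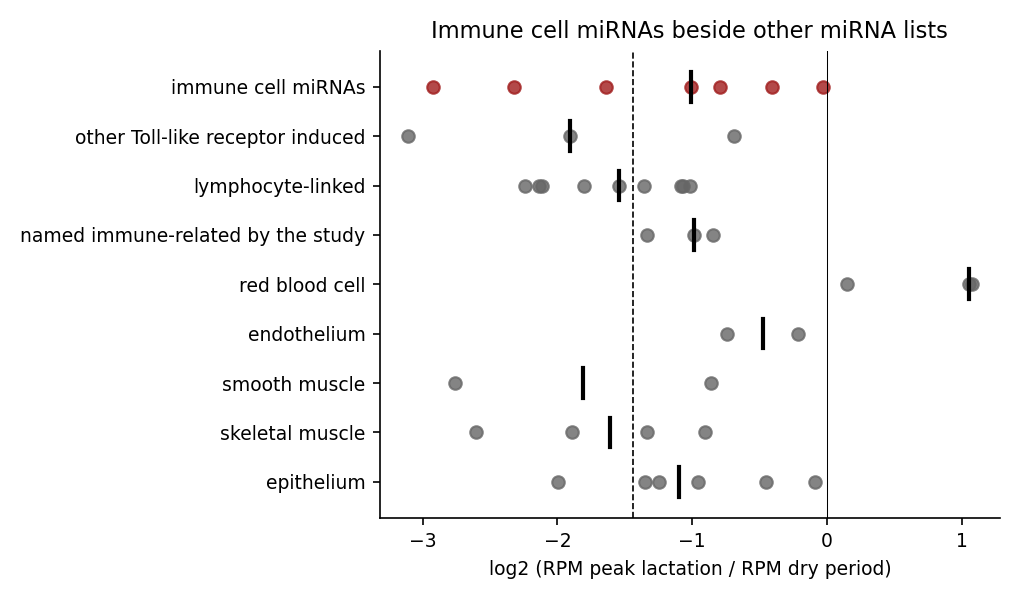
Log2 fold change, peak lactation over dry period per clean read, of the 7 immune cell miRNAs (red) and of the tested miRNAs of 8 other lists (grey), 1 point per miRNA, with the median of each list as a black bar and that of all 257 tested miRNAs as a broken line. The red blood cell miRNAs are the only list shown with all points above 0, and miR-146b is the rightmost immune cell miRNA.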

How the data were processed

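Small RNA of mammary gland, under 30 nt, was sequenced on the Solexa platform, and the submitters' processing notes name CASAVA. The authors deposited, per library, every distinct clean read (tag) with its count of reads, neither aligned nor normalized, after removing low-quality, adaptor-less, insert-less, contaminant, poly(A) and short (under 18 nt) reads. Column 1 of each file is the tag length.

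A tag was counted for the listed conserved miRNA to which it was identical over the most bases, at least 18 nt, from base 1 on. Ties were counted for each miRNA. Counts were divided by the clean reads and multiplied by 1000000 (RPM). miRNAs under 1 RPM in both libraries were not tested, a library at 3 reads being at the floor of 0.202 and 0.191 RPM. Intervals are 95% Clopper-Pearson, for fold changes those of the split of the reads between the libraries, and for differences between members those of the log odds ratio. PCR reads are not independent molecules, so intervals cover counting error only. A miRNA passed at a fold of more than 2. No test between stages was run, since each stage is 1 library.

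The members and lists were chosen with earlier results of these data known. All members, the tags among the 3 most frequent of each, and the listed miRNAs at 1 RPM or more were named, and list members under 1 RPM were added. The most frequent tags of starts with at least 5% of the reads were added after their values were seen. So were the A and U ends and the comparisons of mean lengths and of reads over the listed length.

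Alternatives covered scaling (by conserved miRNA reads, or in R 4.3.3 by edgeR 4.0.16 TMM or DESeq2 1.42.0 size factors), counting rules, ties, low values and the calls. Counting used Python 3.11.15 with numpy 2.4.6, intervals scipy 1.17.1, and plots matplotlib 3.10.9. Counting and intervals were tested on simulated data. The listed sequences came from the study's supplement. Mapping to a genome was left out.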

Additional observations from a re-analysis of the deposited data

How the results depend on the processing

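The direction of the group, and of most members, depended on the scaling. The log2 fold change of the 7 members together was 1.78 per conserved miRNA read, 0.99 with edgeR's TMM factors and 1.09 with DESeq2's size factors, and the number of members more than 2-fold lower was then 0, 2 and 1, beside 19, 52 and 47 of all tested miRNAs. In the same order, miR-155 turned to 1.08, 0.29 and 0.39, and miR-142 turned to 0.44 under the first of these only. Also above 0 under all 3 scalings were miR-146a, miR-146b and miR-150. Below 0 under all 3 scalings were miR-142* and miR-223. Other counting rules left the sign of the members in 41 of 42 values, the exception being miR-146b at 0.09 with identical tags only. They moved the group to -0.23 (identical tags only) and -0.36 (any start within 3 nt), and the miR-142 arm ratio of the dry period to 0.0502 (identical tags only). Without the tags of the miR-146 pair, an alternative chosen after seeing the data, as was a minimum of 2 reads per tag, the group was at -1.48. The other settings kept the counts of lower miRNAs within 1.5 times. No paired analysis was possible because each stage has 1 library, and for the same reason no library could be left out. Mature sequences of RefSeq in place of the listed ones were not run. At this depth, shifts of the starts of miR-142* and miR-223, with 48 and 84 reads taken for the starts at peak lactation, could not be resolved.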

Other observations

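Reads with exactly 1 substitution in the first 18 bases were about as frequent in both stages for the well-covered members. For miR-146b they made up 3.14% of the reads in the dry period (95% exact interval 2.90 to 3.39%) and 3.16% at peak lactation (2.93 to 3.41%), and for miR-142 4.38% (3.86 to 4.94%) and 4.43% (3.56 to 5.45%). The most frequent changes in both miRNAs were A6C and A18C, named with the listed base, its position from the 5′ end and the base of the read. For miR-142, A6C was found in 0.840% of the reads in the dry period against 0.928% at peak lactation, and for miR-146b A18C was found in 0.607% and 0.556%. Among 5 other abundant miRNAs with A at base 6, A6C ran from 0.526 to 1.14% in the dry period and from 0.508 to 1.17% at peak lactation. Among 4 with A at base 18, A18C ran from 0.418 to 0.991% and from 0.348 to 0.954%. A6C of miR-142, and A18C of miR-142 and miR-146b, lay within these ranges, with A6C of miR-142 above the medians of 0.727% and 0.677%. A6C of miR-146b was below its range, at 0.446% and 0.435%. Whether these reads are sequencing errors was not tested.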
